A study of Mus musculus with 12 samples.

Results

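A set of 10 genes that mark the endothelium of the liver sinusoids was followed in mice kept on chow and in mice fed to develop fatty liver with inflammation, nonalcoholic steatohepatitis (NASH). They were Stab1, Stab2, Lyve1, Clec4g, Cd209b, Fcgr2b, Mrc1, Ehd3, Dnase1l3 and Oit3. The set was chosen with earlier results of these data known, and its rows were taken by gene symbol. All 10 were found among the 16703 genes of the whole-liver table and among the 16273 genes of the table of liver sinusoidal endothelial cells (LSEC). The study compared C57BL/6 mice by RNA-seq in 4 groups of 3 libraries each, namely whole liver on chow, whole liver in NASH, LSEC on chow and LSEC in NASH. The labels attach a feeding period of 36 weeks on the NASH diet (D09100301) to every sample, the chow samples included, and give no age or sex. LSEC were non-parenchymal liver cells from which CD11b-positive cells had been removed with magnetic beads and from which CD146-positive cells were then collected with magnetic beads, so the cells a bead step let through remain in these libraries. The labels do not say that the libraries of a group came from separate animals, and p-values then measure only the spread between these libraries, which may be technical in part.

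Sinusoidal endothelium differs from other endothelium in its open pores, its lack of an organized basement membrane and its very high rate of receptor-mediated uptake. The stabilins, the mannose receptor and the inhibitory Fc receptor of these cells take up waste molecules from blood, such as hyaluronan, collagen fragments, oxidized lipoproteins and small immune complexes, and deliver them to lysosomes. In chronic liver disease sinusoidal endothelium is known to lose pores and to take on features of continuous capillaries, a process called capillarization. Several of these genes are not restricted to the cell type: macrophages can express Mrc1, Stab1, Fcgr2b and Dnase1l3, B cells express Fcgr2b, and lymphatic endothelium expresses Lyve1.

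The liver libraries held 47000197 to 57397720 recovered reads and the LSEC libraries 18527017 to 19402863. The identity of the LSEC libraries was checked on markers. The sum over 18 general endothelial markers was 21125 to 25909 RPM (recovered reads of a gene as a share of the library's, on the usual RPM scale) in chow LSEC and 16363 to 19217 in NASH LSEC, against 489 to 569 and 533 to 576 in whole liver. The 10 members took 3.08% to 3.09% of all reads in chow LSEC and 1.75% to 1.88% in NASH LSEC. In whole liver they took 0.0608% to 0.0702% on chow and 0.0563% to 0.0576% in NASH. In both tables the chow and NASH ranges of this share did not overlap. In whole liver, fewer sinusoidal cells and less RNA of a gene per cell cannot be told apart.

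In LSEC from NASH livers Cd209b, Ehd3, Dnase1l3, Clec4g, Fcgr2b and Oit3 fell and Lyve1 rose. By limma on log2(normalized reads + 1), with Benjamini-Hochberg adjustment over all genes of the table and a threshold of 0.05, 6 of 10 members fell and 1 rose in LSEC, against a background of 2.86% of all LSEC genes called lower and 5.24% called higher (8.11% in either direction). In whole liver 7 members fell and 1 rose, against 21.0% of all liver genes called lower and 25.0% called higher (46.0% in either direction). The 7 members called in LSEC were called in whole liver in the same direction. Calls in LSEC depended on single libraries, for the members as for all genes: 7 members were called without the first chow library, 4 without the second and 2 without the third, and 4 when either of the first NASH libraries (1 or 2) was dropped and 1, Cd209b, when NASH library 3 was. In the same order the calls over all genes went from 1319 to 1171, 1055 and 255, to 474 and 241, and to 124. The members' fold changes moved less, Clec4g between -1.19 and -0.90 and Dnase1l3 between -1.33 and -1.23. On recovered reads with all libraries, edgeR and DESeq2 each called 8 members in LSEC, and limma with a pseudocount of 10 called 5, with Fcgr2b (adjusted p = 0.0654) and Oit3 (0.0518) lost. With scaling by total reads, 1 member was called higher and 4 lower in LSEC, and 2 higher and 5 lower in liver, where calls over all genes split into 7878 higher and 904 lower in place of 4179 and 3512. The median log2 fold change of the 10 members was -0.80 in LSEC and -0.55 in whole liver, beside 0.00 and 0.02 over all genes tested. In LSEC the chow and NASH libraries did not overlap for any member, with 9 lower and 1 higher, while 15.4% of all LSEC genes were lower and 16.5% higher without overlap. In liver 7 members were lower without overlap, beside 27.3% of all liver genes, and 0 were higher without overlap, beside 29.8%. The other 3, Stab1, Stab2 and Lyve1, overlapped.

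**Figure D1:**
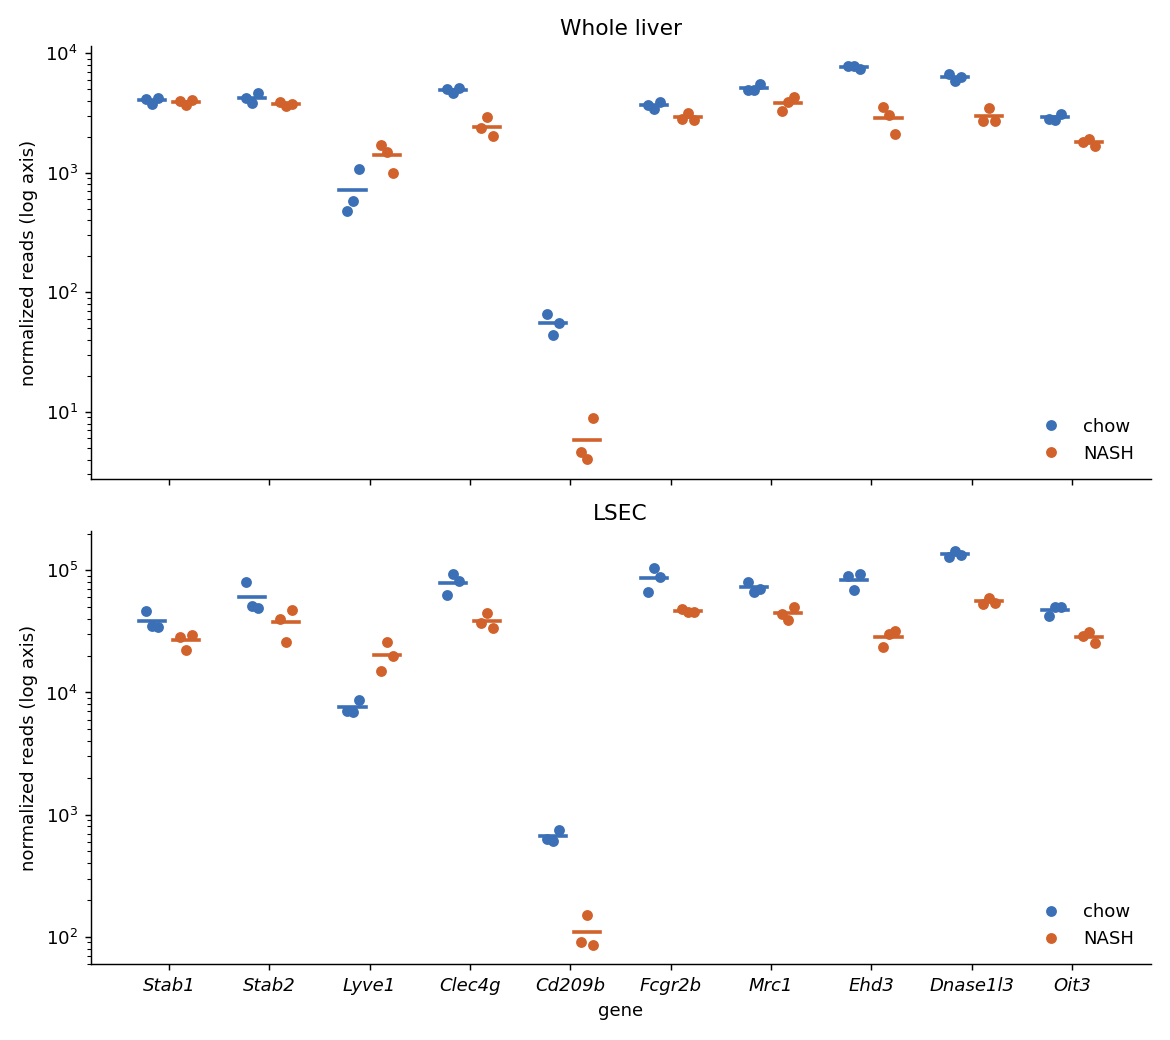
Normalized reads of the 10 genes in each library (points) with the group mean (bars), on a log axis, for whole liver and LSEC on chow and NASH diets. In LSEC the chow and NASH points do not overlap for any gene, and Lyve1 is the gene whose NASH points lie above its chow points.

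The stabilins are large scavenger receptors that take up hyaluronan, modified lipoproteins and other ligands. Stab2 had 80947, 50699.7 and 49299 normalized reads in the chow LSEC libraries and 39831, 25859.8 and 47079.7 in the NASH LSEC libraries. Stab1 had 46284, 35055 and 34025 on chow and 28519, 22368 and 29746 in NASH. The first chow library was the highest and the second NASH library the lowest for both genes, and every NASH library lay below every chow library. The log2 fold change in LSEC was -0.69 ± 0.29 (SE, n = 3; limma, adjusted p = 0.193) for Stab2 and -0.51 ± 0.19 (adjusted p = 0.145) for Stab1, so neither passed. Both groups of libraries overlapped for the stabilins in whole liver, where Stab1 averaged 4036 ± 250 on chow and 3917 ± 185 in NASH (SD, n = 3) and Stab2 4231 ± 389 and 3767 ± 143. Their liver log2 fold changes were -0.04 (95% interval -0.23 to 0.15) and -0.16 (-0.37 to 0.04). With scaling by total reads the liver signs turned, to 0.37 for Stab1 (adjusted p = 0.0116, called higher) and 0.25 for Stab2 (adjusted p = 0.0697). Stab1 lies on chromosome 14 at 31139013 to 31168641 and Stab2 on chromosome 10 at 86841198 to 87008025 (mm10, both on the minus strand).

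Lyve1 encodes a hyaluronan receptor of sinusoidal and lymphatic endothelium and lies on chromosome 7 at 110850607 to 110863239 (minus strand). In LSEC it had 7063, 6872 and 8729 normalized reads on chow and 14903, 26118 and 19957 in NASH. Every NASH library was above every chow library, and the NASH libraries were the more spread. The mean was 2.69-fold higher in NASH, a log2 fold change of 1.40 ± 0.22 (SE, n = 3; limma, adjusted p = 0.0168). The call ended without the third chow library (adjusted p = 0.053) or the third NASH library (0.0709). In whole liver Lyve1 had 479, 578 and 1084 normalized reads on chow and 1698, 1506 and 998 in NASH. The third chow library lay above the third NASH library, so the liver groups overlapped. The liver log2 fold change of 1.03 ± 0.29 passed limma (adjusted p = 0.0153) and lost its call without the first or the second chow or the first or the second NASH library (0.0517 to 0.0868). In the authors' deposited DESeq2 results the adjusted p of Lyve1 is 0.0546 in liver and 2.73e-07 in LSEC. By these deposited values 7 members pass 0.05 in liver and 8 in LSEC. Among markers of lymphatic endothelium, which also carries Lyve1, 4 of 5 were measured in each table. Prox1, the transcription factor of lymphatic identity that hepatocytes also express, rose by 1.43 in LSEC, with 127, 79.4 and 125 normalized reads on chow and 204, 289 and 427 in NASH. In liver Prox1 fell by 1.05 (limma, adjusted p = 0.00477). Over the 4 measured genes the median log2 fold change in liver was -0.49, with 1 called higher and 1 lower. In LSEC the median was 0.54, with 1 called higher and 0 lower, and none of these genes was at 0 in all libraries. Their sum was 2643 to 2982 RPM on chow and 1880 to 2137 in NASH, and Flt4, a receptor gene also counted among the further sinusoidal genes, made up nearly all of it. Flt4 averaged 54499 normalized reads in chow LSEC and 36105 in NASH LSEC (log2 fold change -0.60; limma, adjusted p = 0.0569). What part lymphatic cells have in the rise of Lyve1 was not tested.

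Clec4g, Cd209b and Mrc1 encode C-type lectins, receptors that bind sugars on glycoproteins and microbes. Clec4g, a lectin of sinusoidal endothelium in liver and lymph node, lies on chromosome 8 at 3707064 to 3720651. Cd209b, a mouse relative of the human lectin DC-SIGN, lies on the same chromosome at 3917655 to 3926844, also on the minus strand. Clec4g had 62843, 93712 and 81528 normalized reads in chow LSEC and 36993, 44919 and 33893 in NASH LSEC, and the lowest chow library was well above the highest NASH library. The mean fell by 51.4%, a log2 fold change of -1.03 ± 0.21 (SE, n = 3; limma, adjusted p = 0.0339). In liver it had 5027, 4652 and 5080.1 on chow and 2347, 2905 and 2039 in NASH, a log2 fold change of -1.03 ± 0.12 (limma, adjusted p = 0.000157). The LSEC call remained without the first chow library and ended without any 1 of the other libraries (adjusted p up to 0.133).

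Cd209b had the largest fold change of the 10 members in both tables. In LSEC it had 629, 610.4 and 748 normalized reads on chow and 90.8, 150.2 and 86.4 in NASH. The log2 fold change was -2.63 ± 0.25 (SE, n = 3; limma, adjusted p = 0.00416), and Cd209b kept its LSEC call without any 1 library (adjusted p 0.00949 to 0.0302). In liver few reads stood behind it: 56, 41 and 54 recovered reads on chow and 5, 4 and 11 in NASH, with a log2 fold change of -3.09 ± 0.37 (limma, adjusted p = 0.000171). At so few reads the fold depends on the pseudocount: the liver value was -2.05 with a pseudocount of 10 and -3.30 with 0.1. The groups did not overlap in either table. Cd209b belongs to a cluster of similar genes, and how reads were divided between near-identical copies is not known here.

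Mrc1, the mannose receptor, lies on chromosome 2 at 14229392 to 14332057 on the plus strand. It had 79803, 66722 and 70855 normalized reads in chow LSEC and 44154, 39539.8 and 49988 in NASH LSEC. The groups were apart, but the log2 fold change of -0.70 ± 0.17 (SE, n = 3) missed the threshold in limma (adjusted p = 0.0523). On recovered reads it passed, with adjusted p = 0.043 by edgeR and 0.000222 by DESeq2, and it passed in limma once genes averaging under 10 normalized reads were dropped (0.0389). In liver it had 4960.2, 4913 and 5474 on chow and 3306, 3908 and 4332 in NASH, a percent change of -24.8 in the mean (log2 fold change -0.42 ± 0.11; limma, adjusted p = 0.0109). With scaling by total reads the liver value was -0.0014 (adjusted p = 0.994).

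The upstream sequence of the 3 lectin genes is shown, with that of Stab1, which passed the test in neither table. NASH libraries lay below chow libraries in both tables for the lectins, and also for Fcgr2b, Ehd3, Dnase1l3 and Oit3. Stab2, like Stab1, passed in neither table. RefSeq windows on GRCm38.p6 were matched by symbol for 7 of 10 members. Of the 250 bases before each RefSeq start, the part outside annotated exons is printed, 5′ to 3′ on the gene's own strand, from chr8:3720652-3720901 (minus), chr8:3926845-3927091 (minus), chr2:14229164-14229391 (plus) and chr14:31168642-31168891 (minus). Capitals mark matches on either strand to 4 motifs. AGATAA is the core of sites for zinc finger factors such as the sinusoidal regulator Gata4. TGCTGA is part of sites for the Maf family of leucine zipper factors. AGGAAG is a common form of site for the Ets family, which is active in endothelium. TATAAA is the box bound by the general transcription machinery. The run of adjoining capitals in Clec4g is a pair of overlapping AGGAAG matches.
Clec4g: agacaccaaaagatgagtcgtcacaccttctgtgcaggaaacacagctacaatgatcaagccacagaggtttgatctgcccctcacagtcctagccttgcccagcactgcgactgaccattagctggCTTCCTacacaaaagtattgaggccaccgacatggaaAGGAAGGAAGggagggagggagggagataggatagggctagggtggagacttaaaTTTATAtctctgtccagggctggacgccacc
Cd209b: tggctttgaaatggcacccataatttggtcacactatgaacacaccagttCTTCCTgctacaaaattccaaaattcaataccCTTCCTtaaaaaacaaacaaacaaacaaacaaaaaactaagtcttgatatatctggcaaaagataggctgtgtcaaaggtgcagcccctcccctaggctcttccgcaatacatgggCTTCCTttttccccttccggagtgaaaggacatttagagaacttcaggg
Mrc1: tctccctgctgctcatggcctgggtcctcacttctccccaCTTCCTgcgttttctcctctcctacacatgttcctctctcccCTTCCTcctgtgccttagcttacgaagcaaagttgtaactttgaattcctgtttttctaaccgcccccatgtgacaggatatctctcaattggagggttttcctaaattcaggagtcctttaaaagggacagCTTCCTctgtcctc
Stab1: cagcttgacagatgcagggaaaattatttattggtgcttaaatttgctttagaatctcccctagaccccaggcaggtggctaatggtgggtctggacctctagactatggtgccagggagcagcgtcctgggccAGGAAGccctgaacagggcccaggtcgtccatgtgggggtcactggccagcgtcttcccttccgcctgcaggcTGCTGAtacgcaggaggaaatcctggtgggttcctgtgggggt
The 3 lectin windows each held 3 matches to AGGAAG and none to AGATAA or TGCTGA. Clec4g also held 1 match to TATAAA, on the reverse strand. Stab1 held 1 match to AGGAAG and 1 to TGCTGA. The 250 bases of Stab2, not printed, held 1 match to AGGAAG and no other motif. How the lectins compare with other members in matches therefore rests on which genes were picked. None of the 7 matched windows held AGATAA, and those of Fcgr2b and Ehd3 held none of the 4 motifs. Of 32851 mouse windows of 250 bases, 29.5% held at least 1 match to AGGAAG, 9.99% to AGATAA, 16.1% to TGCTGA and 12.4% to TATAAA. The share of windows with 3 matches was not counted. These are matches of letters, and no binding was measured.

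Fcgr2b encodes the inhibitory receptor for immunoglobulin G, by which sinusoidal endothelium takes up small immune complexes. It lies on chromosome 1 at 170958617 to 170976547 (minus strand). In LSEC it had 66797, 104762 and 87870.2 normalized reads on chow and 48048, 45562 and 45934 in NASH. The chow libraries were widely spread and the NASH libraries close together, with no overlap. The log2 fold change of -0.87 ± 0.21 (SE, n = 3; limma, adjusted p = 0.0479) lay just under the threshold, and the call ended without any 1 library but the first chow one (up to 0.162). In liver the mean went from 3673 ± 235 to 2912 ± 222 (SD, n = 3), a log2 fold change of -0.34 ± 0.09 (limma, adjusted p = 0.0131). That sign turned with scaling by total reads (0.08, adjusted p = 0.496), and the call ended without the third NASH library (0.0503). The activating Fc receptor genes Fcgr1, Fcgr3 and Fcgr4, which macrophages carry, rose in LSEC by 2.46, 1.68 and 2.07 on the log2 scale; Fcgr3 was chosen after its value was seen. Fcgr2b and Fcgr3 are similar in sequence, so the division of their reads is uncertain.

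Ehd3 encodes an ATPase that bends membranes and returns endocytosed receptors to the surface, and lies on chromosome 17 at 73804134 to 73832094 (plus strand). In LSEC it had 89689.6, 69398 and 92684 normalized reads on chow and 23510.1, 30169 and 31633 in NASH. The percent change of -66.1 in the mean (log2 fold change -1.56 ± 0.20, SE, n = 3; limma, adjusted p = 0.0101) was the second largest fall among the members, and its call ended without the third NASH library (0.051). In liver Ehd3 had 7873, 7780.0 and 7342 on chow and 3537, 3032 and 2114 in NASH, a log2 fold change of -1.44 ± 0.16 (limma, adjusted p = 0.000107). Among its relatives, Ehd2 rose by 1.00 in LSEC and by 1.97 in liver, Ehd4 rose by 1.33 in liver and was at -0.19 in LSEC (adjusted p = 0.493), and Ehd1, which passed in neither table, was at 0.02 and -0.10. Ehd1 in both tables and Ehd2 and Ehd4 in LSEC were named after their values were seen.

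Dnase1l3 and Oit3 encode secreted proteins. The nuclease made from Dnase1l3 degrades chromatin of dead cells in blood, and Oit3 encodes a zona pellucida domain protein of liver. Dnase1l3, on chromosome 14 at 7964533 to 7994573 (minus strand), had 127505, 144108 and 132493 normalized reads in chow LSEC and 52531, 59730.5 and 54454 in NASH LSEC. Replicates were close within a diet and the groups lay far apart. The log2 fold change was -1.28 ± 0.17 (SE, n = 3; limma, adjusted p = 0.0118), and the call ended without the third chow (0.054) or the third NASH library (0.0666). In liver the mean fell by 52.9% (log2 fold change -1.09 ± 0.11; limma, adjusted p = 6.73e-05), the smallest adjusted p of the 10 members there. Oit3, on chromosome 10 at 59422958 to 59441778 (minus strand), had 42058, 50222 and 49955 in chow LSEC and 29181, 31412 and 25533 in NASH LSEC. Its log2 fold change was -0.72 ± 0.16 in LSEC (limma, adjusted p = 0.0395) and -0.69 ± 0.09 in liver (adjusted p = 0.000246). The LSEC call of Oit3 ended without any 1 library but the first chow one (up to 0.152).

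**Figure D2:**
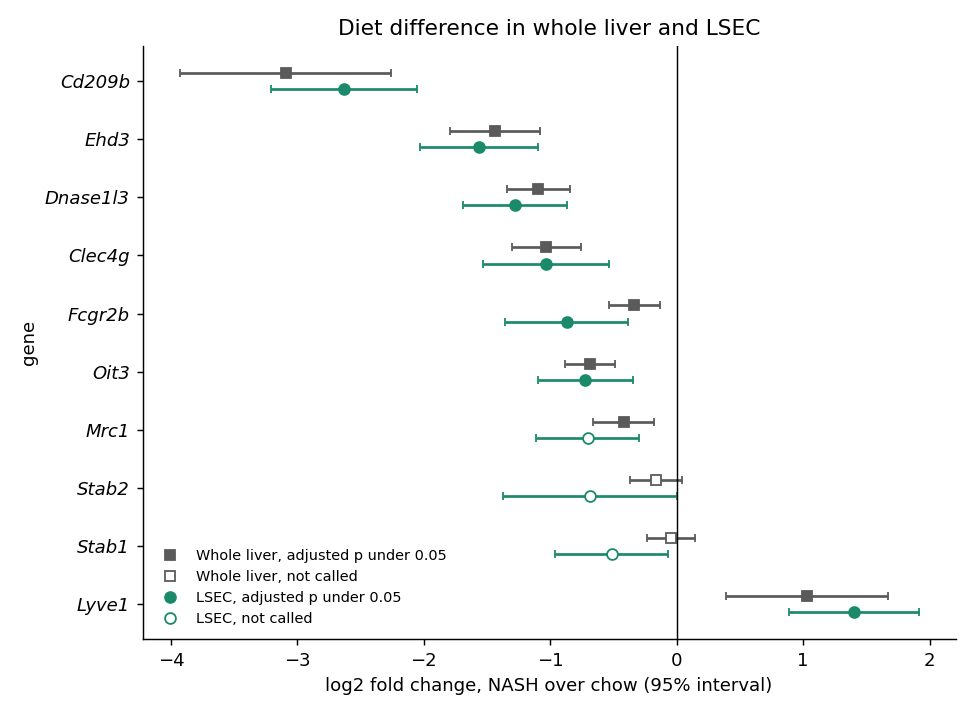
Log2 fold change of NASH over chow for each gene in whole liver (squares) and LSEC (circles), with 95% intervals from limma; filled symbols have an adjusted p under 0.05. Cd209b is the lowest in both tables (-3.09 and -2.63 with a pseudocount of 1) and Lyve1 lies on the other side of 0 (1.03 and 1.40).

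Levels of different genes were set against each other per exon length, as RPKM (RPM for each kilobase of exon), with exon lengths from GENCODE M21. In chow LSEC Clec4g had the highest level (1624 ± 297 RPKM, SD, n = 3) and Dnase1l3 the next (1319 ± 63.3), and these neighbours overlapped. Oit3 (858 ± 76.6), Fcgr2b (752 ± 155), Ehd3 (647 ± 106) and Mrc1 (575 ± 60.4) followed, each overlapping the next. Stab2 (348 ± 107), Stab1 (189 ± 35.3), Lyve1 (131 ± 18.6) and Cd209b (15.8 ± 1.91) were separate from their neighbours. In NASH LSEC Clec4g stood alone at 872 ± 135 RPKM. Lyve1 had moved from place 9 to place 6, at 388 ± 110 RPKM, where it overlapped Mrc1 (389 ± 43.7). Ehd3 had moved from place 5 to place 7 at 241 ± 37.8 RPKM, beside Stab2 at 238 ± 67.1, and these overlapped. In whole liver Clec4g was again highest, at 33.0 ± 2.35 RPKM on chow and 21.6 ± 2.95 in NASH, and Cd209b lowest, at 0.432 ± 0.0882 and 0.0616 ± 0.0316. The levels from Oit3 (14.2) down to Stab1 (8.40) in NASH liver overlapped from each gene to the next.

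**Figure D3:**
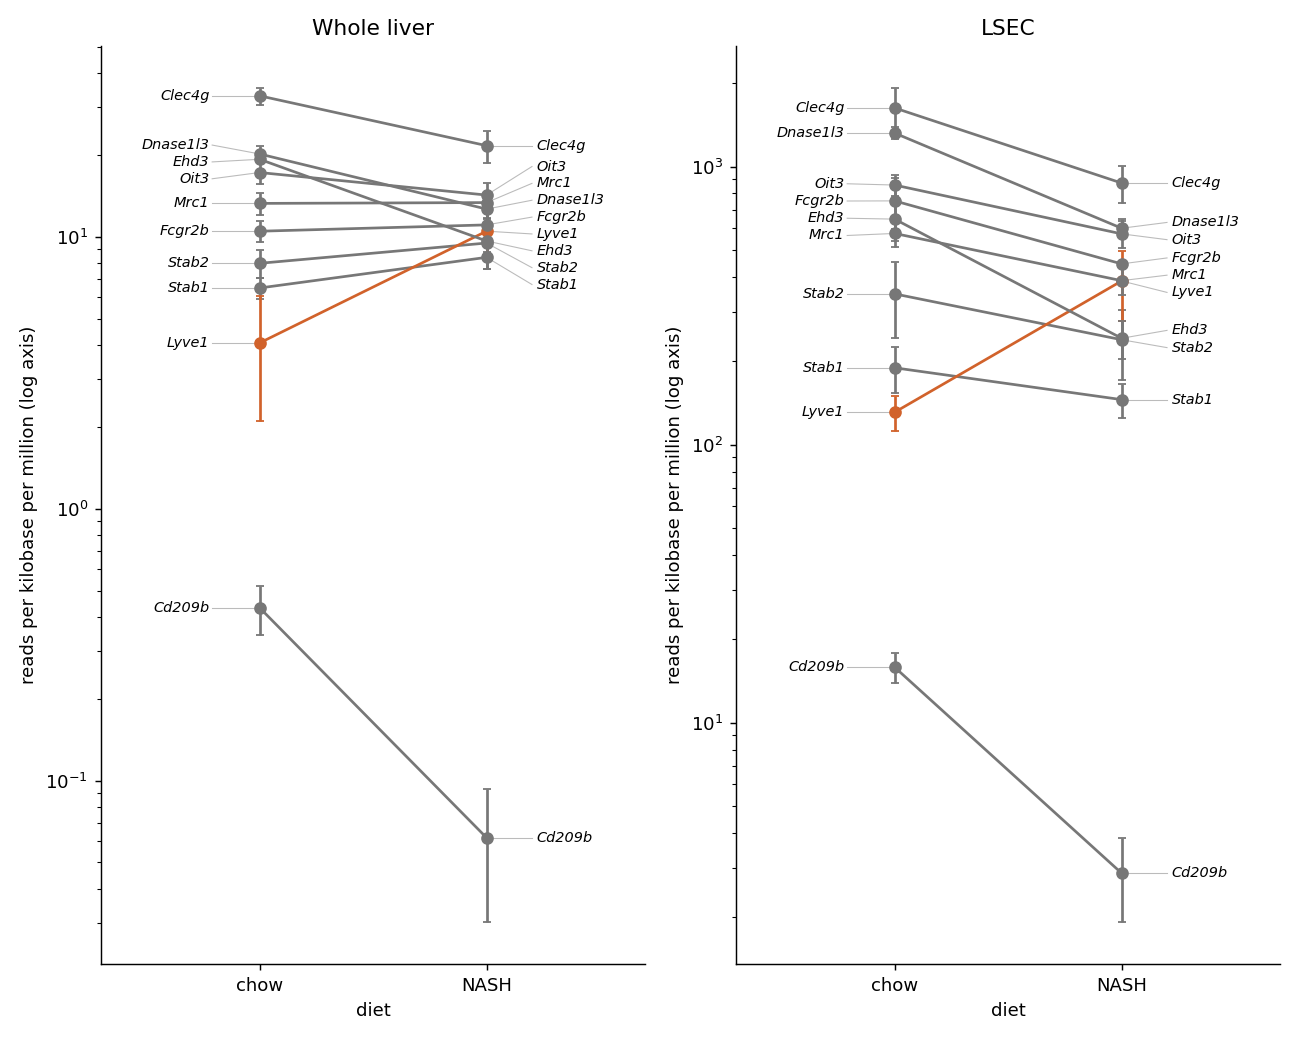
Mean RPKM (± SD, 3 libraries) of each gene on chow and in NASH, on a log axis, for whole liver and LSEC. Lyve1, drawn in orange, goes from place 9 to place 6 of the 10 genes in LSEC.

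Levels in RPM were higher in LSEC than in whole liver for all 10 genes, by 29.1 times (Stab1) to 71.8 times (Fcgr2b) on chow and by 17.3 times (Stab1) to 47.5 times (Dnase1l3) in NASH. These ratios set a separately prepared cell fraction against whole tissue and were not tested. In RPM the ratio was lower in NASH for 8 genes and higher for Cd209b (36.6 on chow and 46.6 in NASH) and Lyve1 (32.1 and 37.0). The share over all genes was not counted, and the side depends on how libraries are scaled. With scaling by the general endothelial markers, the log2 fold changes of Clec4g, Mrc1, Ehd3, Dnase1l3 and Oit3 were also higher in LSEC than in liver. Cd209b in NASH liver rests on 5, 4 and 11 recovered reads.

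The NASH effect was compared between LSEC and whole liver by subtracting the liver log2 fold change from that in LSEC, with a two-sided t distribution and Benjamini-Hochberg adjustment over the 15786 genes in both tables. Over all genes 19.5% were called (7.99% higher in LSEC than in liver and 11.5% lower), and none of the 10 members was (adjusted p 0.126 to 0.999), with 2 at an unadjusted p under 0.05. By the interaction term of edgeR 0 members were called and 0 had an unadjusted p under 0.05. The lowest values, LSEC minus liver, were -0.53 for Fcgr2b (95% interval -1.04 to -0.03), -0.52 for Stab2 (-1.22 to 0.17) and -0.47 for Stab1 (-0.94 to -0.01). For Clec4g the difference was 0.00 (-0.53 to 0.53) and for Oit3 -0.04 (-0.44 to 0.36). Intervals of this width do not show that the tissues act alike. With scaling by total reads 2 members passed, Fcgr2b (-0.81, adjusted p = 0.0243) and Stab1 (-0.75, adjusted p = 0.028), and Fcgr2b passed without the first chow LSEC library (-0.71, adjusted p = 0.0422).

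General endothelial markers were compared in the same libraries. Relative to the chow mean, the mean log2 level of the 18 markers, Pecam1 and Cdh5 among them, was -0.46, -0.50 and -0.46 in the NASH LSEC libraries. By limma 2 of these 18 fell in LSEC, the coreceptor gene Eng (-0.68) and the tight junction gene Cldn5 (-1.05), and 0 rose. Pecam1 was at -0.08 (adjusted p = 0.753) and Cdh5 at -0.18 (adjusted p = 0.561). In liver 5 of the 18 fell and 2 rose, with Ptprb at -1.03, Kdr at -0.99 and Fli1 at 0.75. When each library was scaled by this list, 3 members remained lower in LSEC, Cd209b (-2.16, adjusted p = 0.00416), Ehd3 (-1.09, adjusted p = 0.0116) and Dnase1l3 (-0.81, adjusted p = 0.0197), and Lyve1 was higher (1.87, adjusted p = 0.00439). Over all LSEC genes this scaling gave 4445 higher and 146 lower. The values then were -0.56 for Clec4g (adjusted p = 0.0917), -0.40 for Fcgr2b (0.177), -0.25 for Oit3 (0.265) and -0.04 for Stab1 (0.873). In liver the same scaling left 5 members lower and 1 higher, where all genes split into 4715 higher and 1845 lower, with Clec4g at -0.90 (adjusted p = 9.51e-05) and Oit3 at -0.56 (adjusted p = 0.00152), and Fcgr2b and Mrc1 without a call. This scaling moved the median log2 fold change of all genes to 0.47 in LSEC and 0.15 in liver, and scaling by total reads moved it to 0.14 and 0.43.

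**Figure D4:**
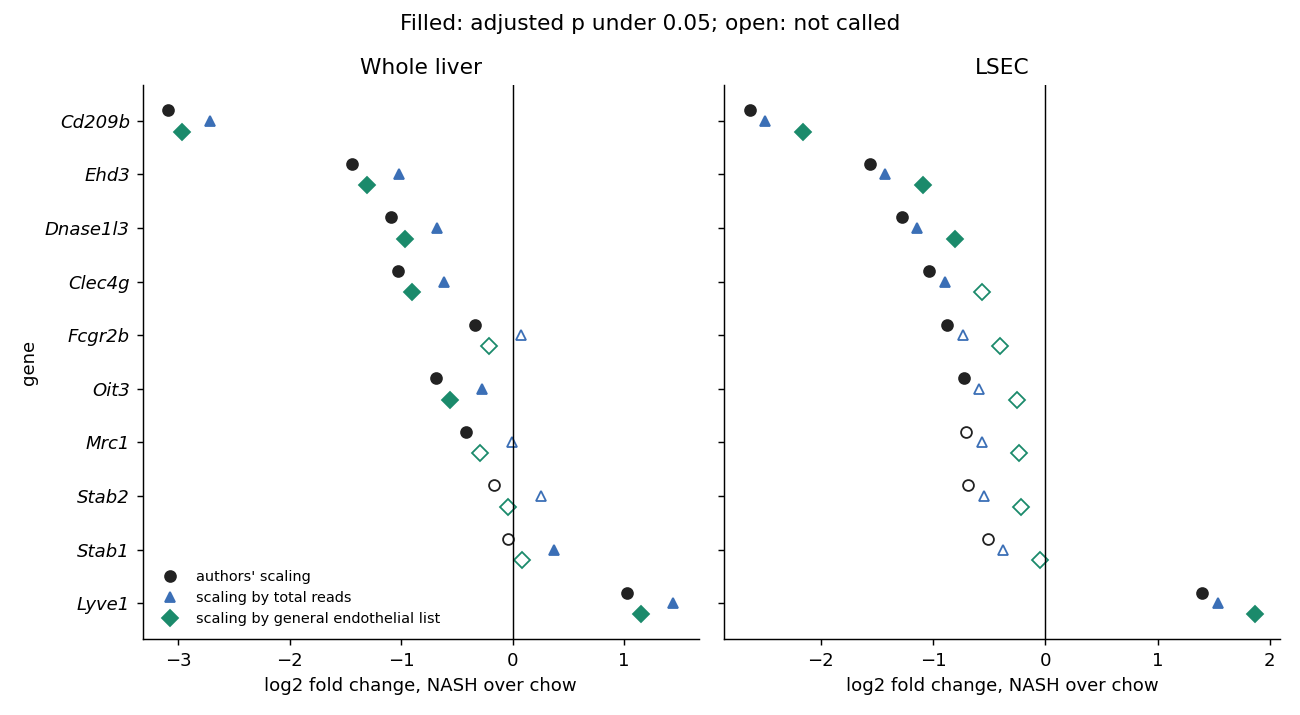
Log2 fold change of NASH over chow for each gene under the authors' scaling (circles), scaling by total reads (triangles) and scaling by 18 general endothelial markers (diamonds); filled symbols have an adjusted p under 0.05. Cd209b, Ehd3, Dnase1l3 and Lyve1 keep their side and their call under all 3 in both tables.

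Ratios between members within a library do not depend on the scaling of libraries. In LSEC the ratio of Lyve1 to Clec4g normalized reads was 0.112, 0.0733 and 0.107 on chow and 0.403, 0.581 and 0.589 in NASH, with no overlap. The ratio of Cd209b to Clec4g was 0.00857 ± 0.00183 on chow and 0.00278 ± 0.000488 in NASH (SD, n = 3), so the NASH libraries were again apart. The ratio of Stab2 to Stab1 was 1.55 ± 0.17 on chow and 1.38 ± 0.21 in NASH (SD, n = 3) and overlapped. The pairs were picked by hand, and the share over other gene pairs was not counted. Of 12 such ratios, 6 in each table, 10 had groups that did not overlap. For those an exact two-sided permutation test gave p = 0.1, the smallest that 3 against 3 libraries allow (0.12 after Benjamini-Hochberg adjustment over the 12). For Lyve1 over Stab2, Clec4g or Mrc1 in LSEC, the lack of overlap followed from the members' own values. There Lyve1 was higher and the others lower in every NASH library than in any chow one. Among the chow LSEC libraries the ratio of Clec4g to Stab2 was 0.776 in the first and 1.85 and 1.65 in the others, and among the NASH libraries it was 0.929, 1.74 and 0.720.

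Of 16 further sinusoidal genes 7 fell in LSEC and 0 rose, with a median log2 fold change of -0.63, and 12 fell and 0 rose in liver, with a median of -0.55. With scaling by total reads the liver counts were 5 lower and 3 higher, and with the endothelial scaling 3 were lower in LSEC. The bone morphogenetic protein genes Bmp6 and Bmp2, signals by which sinusoidal endothelium sets hepatocyte iron sensing, were at -1.56 and -1.12 in LSEC, and Cd300lg at -1.10. Of 18 other scavenger receptors 3 rose and 2 fell in LSEC, and 9 rose and 5 fell in liver. With the endothelial scaling 6 rose and 1 fell in LSEC. In liver the smallest adjusted p of this list were those of Cd163 (log2 fold change -5.75) and Marco (-4.51), which are also in the Kupffer cell list. Cd36, a fatty acid and lipoprotein receptor, rose by 1.40 in LSEC and by 1.77 in liver, and Olr1, a receptor for oxidized lipoprotein, rose by 3.26 in LSEC. The neonatal Fc receptor gene Fcgrt fell by 0.94 in LSEC. Of 18 genes of the clathrin uptake machinery 2 fell and 0 rose in LSEC, the adaptor genes Ap2a2 (-0.44) and Eps15 (-0.49), but with the endothelial scaling 2 rose and 0 fell. In liver 5 of these fell and 1 rose, but with scaling by total reads 11 rose and 0 fell. Over all genes 5.24% were called higher and 2.86% lower in LSEC, and 25.0% and 21.0% in liver. Of all 16273 LSEC genes, 4445 were higher and 146 lower with the endothelial scaling. Of all 16703 liver genes, 7878 were higher and 904 lower with scaling by total reads. The counts of the uptake genes thus turned in the direction of all genes. These shares also stand beside the other lists here and below. Of 17 measured relatives of the members 6 rose and 1 fell in LSEC, and 8 rose and 1 fell with the endothelial scaling. The one that fell, Pla2r1, encodes a receptor of the mannose receptor family and was at -1.17, while Mrc2 of the same family, named after its value was seen, rose by 2.09.

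Markers of other cell types moved with diet in the same LSEC libraries. Of 12 Kupffer cell markers 5 rose and 1 fell in LSEC, and their sum was 711 to 2030 RPM on chow and 3286 to 4354 in NASH. Clec4f, which defines Kupffer cells, had 5667, 3528 and 1949 normalized reads on chow and 5730, 8636 and 6630 in NASH (log2 fold change 1.02, adjusted p = 0.133). Cd5l, of the same list, had 7005, 5166 and 2418 on chow and 17096, 20661 and 17341 in NASH (log2 fold change 2.04; limma, adjusted p = 0.0228). Of 11 recruited macrophage markers 5 rose and 0 fell, with sums of 484 to 642 on chow and 1238 to 3236 in NASH, and Gpnmb rose by 6.31. Itgam, which encodes the CD11b removed by the beads, had 164, 49.0 and 38.9 normalized reads on chow and 177, 201 and 231 in NASH (adjusted p = 0.111). Of 8 dendritic and B cell markers 1 rose, with sums of 61.7 to 107 on chow and 47.8 to 88.9 in NASH. Mrc1, Fcgr2b, Stab1 and Dnase1l3 can be read from macrophages. What part macrophages have in the values of these 4 genes was not tested.

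Of 10 capillary endothelial markers 3 rose in LSEC and 0 fell, and 8 rose in liver and 0 fell. With the endothelial scaling 7 of these 10 were higher in LSEC, as were 9 of 12 Kupffer cell, 10 of 11 recruited macrophage and 4 of 10 stellate cell markers. Cd34, a marker of continuous capillaries that sinusoids largely lack, had 1444, 950 and 1304 normalized reads in chow LSEC and 2494, 2566 and 4111 in NASH LSEC (log2 fold change 1.29 ± 0.24; limma, adjusted p = 0.0259). Of 10 stellate cell markers 2 rose in LSEC, with sums of 729 to 1870 RPM on chow and 1677 to 3345 in NASH, and Lrat, of the retinoid store of stellate cells, had 1891, 279 and 2819 normalized reads on chow and 3765, 2479 and 2018 in NASH. Of 11 hepatocyte markers 0 passed in LSEC by limma, with sums of 467 to 4836 on chow and 2739 to 5835 in NASH. No measured gene of any of these lists was at 0 in all libraries of a table. The part that other cells have in the members' values was not tested.

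The mean pattern of the 10 members over the 6 LSEC libraries was followed most closely, among other genes averaging 50 or more normalized reads, by Tmbim1, St3gal6 and Enpep. Their Pearson correlations with it over the 6 libraries were 0.998, 0.998 and 0.997, and their log2 fold changes -0.63, -0.92 and -1.20. Both diets are in these 6 points, so the values describe the diet step as much as the libraries within a diet.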

How the data were processed

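RNA-seq was analysed from 3 libraries in each of 4 groups. Tools listed by the submitters' processing notes are STAR, HTSeq, FastQC, Seurat and DESeq2, and the build is mm10; versions and settings are not given there. The authors deposited, per tissue, a normalized read signal for each gene and library, their own log2 fold change between diets, and a p-value with its adjusted p-value. The signal behaves as a read count divided by 1 factor per library: 100% of values were whole multiples, within 0.01, of the library's smallest value above 0, which gave recovered reads. LSEC columns carry a diet but no replicate number from the labels and are numbered by position as names only. Date-like strings had replaced 22 gene names per tissue and 2 names were repeated.

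Each tissue was fitted over its whole table with limma (3.58.1, R 4.3.3; trend, pseudocount 1, no filter). limma was used because the deposited values are normalized. The members and 12 comparison lists were chosen with earlier results of these data known, so lists are described by counts and medians and not tested. The genes named are the members, up to 3 called genes of a list with the smallest adjusted p, fixed defining markers, and the 3 genes most like the members' mean. Outside this rule are Flt4 and the genes marked as named or chosen after their values were seen. Not every gene that meets the rule is named. edgeR (4.0.16) and DESeq2 (1.42.0) on recovered reads and pseudocounts of 0.1 and 10 were alternatives, and edgeR called 7559 liver and 1165 LSEC genes. Other scalings set libraries equal in total recovered reads or in the mean log2 level of the general endothelial list. Locations are from GENCODE M21. The liver kit named in the labels does not mark strand; for Clec4g, Fcgr2b, Stab1 and Stab2, 146, 155, 112 and 141 exonic bases lie over a gene on the opposite strand. The steps were also run on simulated data with a fixed spread per tissue and fewer changed genes than were called here. The outcome of that run is not given here.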

Additional observations from a re-analysis of the deposited data

How the results depend on the processing

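Members called in LSEC numbered 7, and 4 when libraries were scaled by the general endothelial list; leaving out 1 library gave 1 to 7 in LSEC and 7 to 8 in liver (8 with all). For the difference between tissues, 2 members were called with scaling by total reads and 0 to 1 with 1 library left out. Over all genes LSEC calls went from 1319 to 4591 with the endothelial scaling (4445 higher, 146 lower), 2503 with DESeq2 and 124 to 1171 with 1 library left out, the fewest without the third NASH library. Without the third chow library there were 255, and 474 and 241 without the first and the second NASH library. The difference was called for 3078 genes and for 1843 to 3178 with 1 library left out; liver calls were 5863 to 7407. Scaling by total reads gave 7878 higher and 904 lower in liver, against 4179 and 3512, and 1164 and 273 in LSEC, against 853 and 466. Members then numbered 2 higher and 5 lower in liver and 1 and 4 in LSEC.

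Some signs turned, none of them of a value called by limma under the authors' scaling except the liver value of Fcgr2b. In liver they were Stab1 (0.37), Stab2 (0.25) and Fcgr2b (0.0802) with scaling by total reads and Stab1 (0.0841) with the endothelial scaling. Stab1, not called under the authors' scaling, was called higher in liver with scaling by total reads. For the difference between tissues they were Clec4g at -0.0272 with edgeR, -0.28 with scaling by total reads and -0.0019 with a pseudocount of 10, Cd209b at -0.49 with that pseudocount, and Mrc1 (0.0583), Ehd3 (0.22), Dnase1l3 (0.16) and Oit3 (0.31) with the endothelial scaling. With 1 library left out the difference ranged from -0.16 to 0.14 for Clec4g, -0.34 to 0.0357 for Ehd3 and -0.12 to 0.0456 for Oit3. The causes were not tested. A replicate block in liver gave 8 members and 7447 genes. Deviations of same-numbered liver libraries had correlations of -0.01, -0.02 and 0.10, and those of differently numbered ones -0.09 to 0.09. With 3 libraries a diet these values cannot settle whether the numbers pair the libraries. No paired analysis was possible in LSEC because its columns carry no replicate numbers. With 3 libraries a group the LSEC calls near the threshold are the least stable, and Cd209b in NASH liver rests on 4 to 11 reads.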
